A study of Mus musculus with 38 samples.

Results

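RNA of 10 genes of bile acid synthesis, conjugation, uptake and feedback control was followed in mouse livers after exposure to a liver carcinogen. The genes are Cyp7a1, Cyp8b1, Cyp27a1, Cyp7b1, Akr1d1, Akr1c6, Acox2, Baat, Slc10a1 and Nr0b2. They were taken by the gene symbols of the array platform, which gave 12 of the 36607 probes measured. Cyp27a1 and Slc10a1 have 2 probes each and the other genes have 1. The study asked how loss of the hepatocyte growth factor receptor c-Met from hepatocytes alters chemically induced liver cancer. All 20 mice were males given 1 intraperitoneal injection of N-nitrosodiethylamine (DEN), a hepatocarcinogen activated in the liver. The dose, on day 14 of life, was 10 micrograms per gram. The 4 groups of 5 mice were Alb-Cre +/- controls of strain B6129 and Alb-Cre +/-; Met Fl/Fl knockouts of strain 129SV/C57BL6, each examined at 3 and at 5 months. Genotype and strain label therefore cannot be told apart. The labels give ages of 12 and 20 weeks, which for the given day of dosing is less than 3 and 5 months later. The interval from dose to examination is therefore uncertain, and the groups are called by month. Albumin-driven Cre acts in hepatocytes, including those of the controls. Which other cells of the liver keep Met was not tested. Every liver was hybridised on 2-colour arrays against 1 pool of RNA from 5 untreated wild-type male livers of 12 weeks, so each value is a log2 ratio of liver over that pool and 0 means the level of the pool.

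Bile acids are made from cholesterol in hepatocytes. The classical route starts with the hydroxylase Cyp7a1, which sets its rate, and Cyp8b1 then directs the product towards cholic acid. The alternative route starts with Cyp27a1, a mitochondrial sterol hydroxylase, and continues through Cyp7b1. The reductases Akr1d1 and Akr1c6 act on the sterol ring, the peroxisomal oxidase Acox2 helps shorten the side chain, and Baat joins the finished acid to taurine or glycine. Slc10a1, also called Ntcp, brings conjugated bile acids back from portal blood. Nr0b2, the small heterodimer partner Shp, is a nuclear receptor without a DNA-binding domain that is induced by the bile acid receptor Nr1h4 (Fxr) and represses Cyp7a1 and Cyp8b1, in part by acting on Nr5a2 (Lrh-1) and Hnf4a. Expression of Cyp7a1 and of several other genes of the pathway is known to vary with feeding and the time of day.

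RefSeq promoters, spanning 250 bases before to 50 after the annotated start on build GRCm38.p6, were matched for 7 of the 10 genes; Cyp7a1, Cyp7b1 and Baat are named only. The promoters of Nr0b2, Cyp8b1 and Akr1c6 are shown because they are the 3 of 7 that hold CAAGGNCA, the letters of a half-site of the kind bound by Nr5a2, which are in capitals. They are printed 5′ to 3′ on the strand of the gene, with Nr0b2 at chr4:133553126-133553425 on the plus strand, Cyp8b1 at chr9:121916256-121916555 on the minus strand and Akr1c6 at chr13:4434093-4434392 on the plus strand.
Nr0b2: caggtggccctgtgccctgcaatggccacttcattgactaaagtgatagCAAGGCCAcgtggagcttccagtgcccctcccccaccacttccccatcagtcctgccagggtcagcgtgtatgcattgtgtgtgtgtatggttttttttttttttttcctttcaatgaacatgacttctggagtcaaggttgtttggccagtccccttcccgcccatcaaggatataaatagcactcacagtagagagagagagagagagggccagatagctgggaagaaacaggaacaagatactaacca
Cyp8b1: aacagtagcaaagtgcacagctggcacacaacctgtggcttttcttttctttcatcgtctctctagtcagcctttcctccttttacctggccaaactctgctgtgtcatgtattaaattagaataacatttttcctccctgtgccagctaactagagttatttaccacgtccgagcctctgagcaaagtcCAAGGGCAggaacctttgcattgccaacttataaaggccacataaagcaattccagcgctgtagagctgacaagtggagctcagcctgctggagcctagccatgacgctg
Akr1c6: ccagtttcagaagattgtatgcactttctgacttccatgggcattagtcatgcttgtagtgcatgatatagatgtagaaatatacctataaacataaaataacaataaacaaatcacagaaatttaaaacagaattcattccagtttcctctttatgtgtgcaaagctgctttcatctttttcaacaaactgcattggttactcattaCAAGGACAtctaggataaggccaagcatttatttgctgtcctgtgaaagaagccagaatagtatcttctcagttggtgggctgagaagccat
The match begins 201 bases before the start in Nr0b2, 60 before it in Cyp8b1 and 42 before it in Akr1c6. Both strands were searched, and 6.7% of 32544 distinct promoters of this length in the table hold a match. The letters TATAAA lie 28 bases before the start in Nr0b2, 31 before it in Cyp8b1, 164 before it in Akr1c6 and, on the minus strand, 128 before it in a promoter of Slc10a1, and 13.6% of all promoters hold them somewhere on either strand. A match of letters describes the window and shows no binding. Nr0b2 and Akr1c6 were lower at 5 than at 3 months in the controls and Cyp8b1 did not pass the test. Of the genes whose promoters hold no match, Cyp27a1 and Acox2 were lower too, Akr1d1 did not pass and Slc10a1 differed between its probes. A link between the letters and these changes was not tested.

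Most members were reproduced between dyes across the mice. Of 20 mice, 18 had both an array with the liver in Cy5 and one with it in Cy3, and after turning the second, the values from both arrays correlated over these mice at r above 0.5 for 11 of the 12 probes (0.93 for Cyp7a1, 0.92 for Nr0b2, 0.89 for Baat, and 0.47 for the exception, the second Slc10a1 probe). Akr1d1, Cyp8b1 and the first Slc10a1 probe had lower values of 0.54, 0.60 and 0.64. The median r over all probes was 0.071. Across all probes, both arrays of a mouse correlated before turning at r from 0.34 to 0.51 at 3 months and from -0.70 to 0.18 at 5 months. Agreement of the dyes would give values below 0 there. Which dye is the numerator is not stated; Cy5 over Cy3 is likely, and under the other reading each higher value here would be lower and each lower value higher. Numbering of the arrays puts them into 4 consecutive runs, called series here: A holds the 5 controls and 2 knockouts of 5 months, B the other 3 knockouts of 5 months, and C and D the mice of 3 months with both genotypes in each. What the runs stand for is not stated, and age and series cannot be told apart. Control 4 of 5 months had a Cy5-labelled array that correlated below 0 across all probes with the same-dye arrays of the younger mice (r from -0.61 to -0.48) and at 0.70 with the turned second array of its own mouse. Its sign was kept, and counts with it turned are given where they differ. The single Met probe was no check of genotype, since its place relative to the deleted part is not given: levels ran from -1.001 to -0.62 in controls and -0.59 to 0.28 in knockouts at 3 months, and from -1.19 to -0.37 and -1.57 to -0.45 at 5 months. Whole livers were measured, so fewer cells of a type and less RNA per cell cannot be told apart, and nothing states whether mice shared litters.

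**Figure D1:**
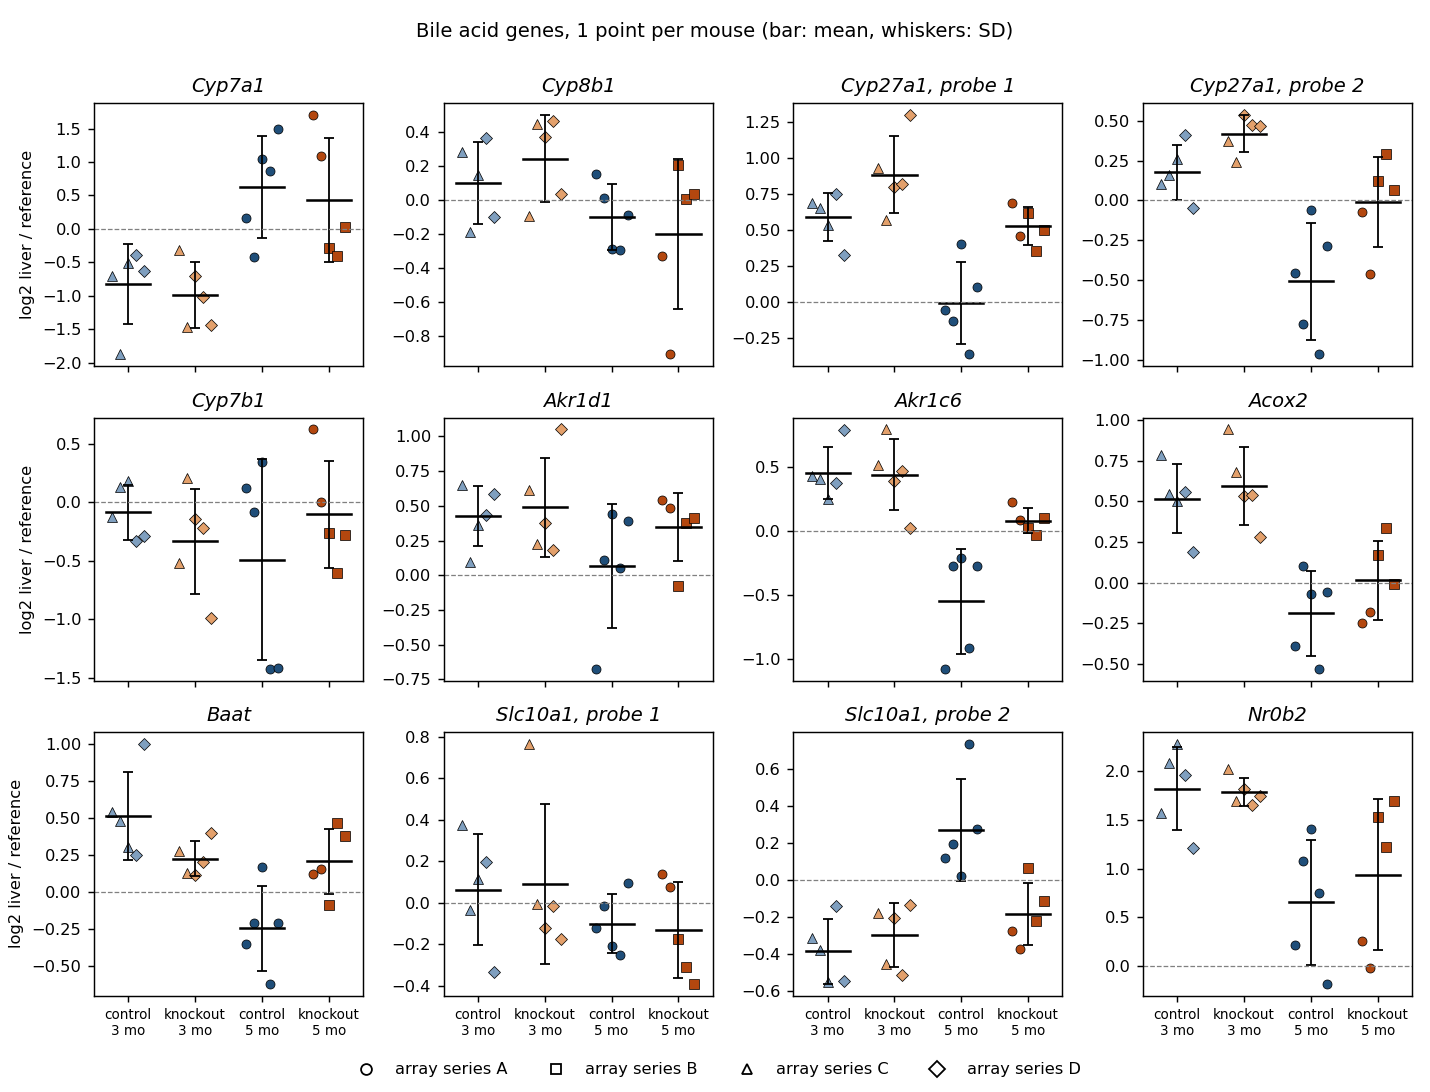
Level of each of the 12 probes (vertical axis, log2 liver over reference; each panel has its own scale) in the 4 groups (horizontal axis), 1 point per mouse with the shape giving the array series, the bar the mean and the whiskers the SD of 5 mice. Nr0b2 lies between 1.22 and 2.28 in all 10 mice of 3 months, and the 5-month knockouts of series A and B lie apart for Cyp7a1 and Nr0b2.

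Against the normal liver pool, the repressor Nr0b2 was the member farthest from 0. It read 1.57, 2.09, 2.28, 1.96 and 1.22 in the 3-month controls and 2.02, 1.69, 1.82, 1.65 and 1.74 in the 3-month knockouts. At 5 months it read 0.21, 1.08, 1.41, 0.75 and -0.18 in controls and 0.25, -0.03, 1.53, 1.22 and 1.70 in knockouts. All 10 livers of 3 months were thus above the pool, by a mean of 1.82 ± 0.43 (SD, n = 5) in controls and 1.78 ± 0.15 in knockouts, 3.53-fold and 3.44-fold, while single livers of either genotype reached the level of the pool at 5 months.

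Cyp7a1, the enzyme repressed by Nr0b2 in textbook accounts, was on the other side of the pool at 3 months. It read -0.70, -1.87, -0.51, -0.39 and -0.63 in controls and -0.32, -1.46, -0.70, -1.02 and -1.44 in knockouts at 3 months. At 5 months it read 0.16, -0.42, 1.05, 0.86 and 1.49 in controls and 1.70, 1.09, -0.28, -0.41 and 0.03 in knockouts. Every 3-month liver was below the pool, with means of -0.82 ± 0.60 and -0.99 ± 0.49, and 7 of 10 livers of 5 months were above it.

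Tests of each group mean against 0 used limma with adjustment over all 36607 probes, and they leave out the spread of the pool itself, which is 1 sample. In the 3-month controls 8 of 12 member probes passed, where 29.9% of all probes did: Nr0b2 (adjusted p = 2.7e-05), the first Cyp27a1 probe (0.59 ± 0.11 SE), Acox2 (0.52 ± 0.11), Baat (0.51 ± 0.11), Akr1c6 (0.45 ± 0.12) and Akr1d1 (0.42 ± 0.14) were higher, and Cyp7a1 and the second Slc10a1 probe (-0.38 ± 0.10) were lower. In the 3-month knockouts 8 of 12 passed, where 28.2% of all probes did. There the second Cyp27a1 probe (0.42 ± 0.12, adjusted p = 0.012) passed as well as the first (0.88 ± 0.11), and Baat (0.22 ± 0.11, adjusted p = 0.14) did not. In the 5-month controls 4 of 12 passed, where 29.2% of all probes did: Nr0b2 (0.65 ± 0.23) and the second Slc10a1 probe (0.27 ± 0.10) were higher, and the second Cyp27a1 probe (-0.51 ± 0.12) and Akr1c6 (-0.55 ± 0.12) were lower. In the 5-month knockouts 2 of 12 passed, Nr0b2 (0.93 ± 0.23) and the first Cyp27a1 probe (0.53 ± 0.11), both higher, where 29.5% of all probes did. In the 3-month controls Cyp7a1 lost its call without control 1, 2, 3 or 5 (adjusted p from 0.056 to 0.20) and Akr1d1 without control 1, 3, 4 or 5 (0.058 to 0.11). The 5-month control counts rest on single livers, falling to 2 without control 4 and to 0 with the sign of its Cy5-labelled array turned; the 3-month knockout count fell to 5 without knockout 2.

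The member probes that passed the test against the pool in no group were those of Cyp8b1 and Cyp7b1 and the first Slc10a1 probe. Cyp8b1 had group means from -0.20 to 0.24, with the 5-month knockouts spreading most (-0.33, -0.91, 0.20, 0.0020 and 0.03). Cyp7b1 had means from -0.49 to -0.09, and 5-month controls 4 and 5 lay at -1.43 and -1.42 while the other 3 lay between -0.08 and 0.35. Leaving out 1 of these controls gave Cyp7b1 means from -0.70 (without control 3) to -0.26 (without control 4), with 1 call gained. The first Slc10a1 probe had means from -0.13 to 0.09. The order of group means for these 3 has no neighbours that differ beyond their spread.

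No member passed the test between knockout and control livers of 3 months. None of 12 probes passed at an adjusted p under 0.05 by limma, where 0.0355% of all probes (13) did, and none passed unadjusted, where 7.96% of all probes did. Differences ran from -0.29 ± 0.16 (SE) for Baat to 0.30 ± 0.15 for the first Cyp27a1 probe, with adjusted p from 0.66 to 1.00. The 95% intervals show what could have been missed. For Cyp7a1 the interval ran from -1.04 to 0.71, so a 2.06-fold lower or 1.63-fold higher level in knockouts lies within it, and for Nr0b2 from -0.72 to 0.65. The narrower intervals of Akr1c6 (-0.38 to 0.35) and Acox2 (-0.25 to 0.41) exclude differences of more than about 1.30-fold and 1.33-fold. Within array series C and D the difference in Cyp7a1 was 0.14 and -0.55, and in Baat -0.24 and -0.38.

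At 5 months no member passed the test between genotypes, and the differences nearest to it were in Akr1c6, Cyp27a1, Baat and Slc10a1. None of 12 member probes passed at an adjusted p under 0.05, where 0.145% of all probes (53) did. At an unadjusted p under 0.05, 5 of 12 passed, where 10.5% of all probes did: Akr1c6, both Cyp27a1 probes and Baat, with higher values in knockouts, and the second Slc10a1 probe, with lower values. With quantile normalisation of the arrays 2 passed after adjustment, Akr1c6 (0.95 ± 0.25, adjusted p = 0.048) and the second Slc10a1 probe (-0.57 ± 0.14, adjusted p = 0.038), and under it 2.09% of all probes (766) passed.

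Akr1c6, a hydroxysteroid dehydrogenase, was the only member whose genotype groups did not overlap, at 5 months alone, where 3.92% of all probes had no overlap. It read -1.07, -0.27, -0.21, -0.91 and -0.28 in controls and 0.23, 0.08, 0.02, -0.04 and 0.10 in knockouts. The controls lay low and spread, and the knockouts lay together close to the pool. The difference was 0.63 ± 0.17 (1.54-fold, adjusted p = 0.20), and 0.70 ± 0.27 within series A. The gene has 8 numbered relatives in the Akr1c family of the mouse in RefSeq, itself included, and whether the probe separates them was not tested.

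Cyp27a1, the entry to the alternative route, gave genotype differences of like size with both probes, at different levels. The first read -0.06, -0.14, 0.40, -0.37 and 0.10 in controls and 0.69, 0.46, 0.62, 0.36 and 0.50 in knockouts of 5 months. These ranges overlapped by 1 control, and every knockout was above the control mean. The second probe had means of -0.51 in controls and -0.011 in knockouts. The differences were 0.54 ± 0.15 (adjusted p = 0.21) and 0.50 ± 0.17 (adjusted p = 0.29), and within series A 0.58 ± 0.22 and 0.24 ± 0.26.

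Baat, which conjugates bile acids, read -0.35, -0.21, 0.17, -0.62 and -0.21 in controls and 0.12, 0.15, -0.09, 0.46 and 0.38 in knockouts of 5 months. At 3 months it had read 0.54, 0.48, 0.31, 0.25 and 1.00 in controls and 0.28, 0.13, 0.11, 0.20 and 0.40 in knockouts. All 5 knockouts were below the control mean at 3 months and all 5 above it at 5 months. The first of these rests on 3-month control 5. Without it the control mean was 0.39, knockout 5 lay above that mean, and the 3-month difference was -0.17. The difference was 0.45 ± 0.16 at 5 months (adjusted p = 0.33), against -0.29 at 3 months. The change of the difference between the ages was 0.74 ± 0.22 (limma interaction term, unadjusted p = 0.0036, adjusted p = 0.47).

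Slc10a1, the uptake carrier, differed between its probes. The second probe read 0.12, 0.19, 0.02, 0.73 and 0.27 in controls and -0.27, -0.37, 0.07, -0.22 and -0.11 in knockouts of 5 months, a difference of -0.45 ± 0.14 (adjusted p = 0.26). The first probe gave -0.031 ± 0.17 (95% interval -0.40 to 0.33). The second probe is also the one on which the dyes agreed least.

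The remaining members did not pass at 5 months, before or after adjustment. Acox2 differed by 0.20 ± 0.16, Akr1d1 by 0.28 ± 0.20, Cyp7b1 by 0.39 ± 0.33 and Cyp8b1 by -0.10 ± 0.19. These values moved with single livers: leaving out 1 mouse gave 0.12 (without control 4) to 0.28 for Acox2, 0.097 (without control 1) to 0.39 for Akr1d1, 0.15 (without control 4) to 0.60 for Cyp7b1 and -0.20 to 0.078 (without knockout 2) for Cyp8b1. Within series A, Cyp7b1 differed by 0.81 ± 0.49 and Cyp8b1 by -0.52 ± 0.21. Cyp7a1 differed by -0.20 ± 0.42 (95% interval -1.07 to 0.67) and Nr0b2 by 0.28 ± 0.33 (-0.40 to 0.97), or 0.074 without control 5. For these last 2 genes the sign depended on the array series: within series A, with 5 controls and 2 knockouts, Cyp7a1 was 0.77 ± 0.44 higher in knockouts and Nr0b2 differed by -0.54 ± 0.37. For the change of the genotype difference between the ages, 0 of 12 probes passed the interaction test after adjustment, where 0% of all probes did, and 3 passed unadjusted (Baat, Akr1c6 at 0.64 ± 0.25 and the second Slc10a1 probe at -0.54 ± 0.20), where 7.74% of all probes did.

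**Figure D2:**
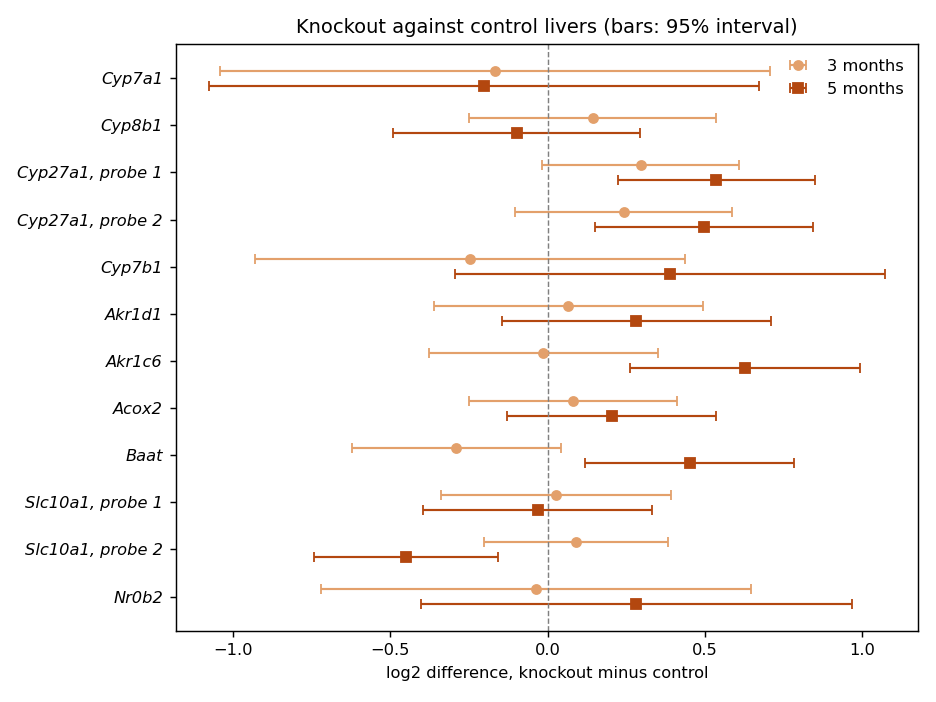
Difference between knockout and control livers (horizontal axis, log2, knockout minus control; points: limma estimate, bars: 95% interval) for the 12 probes (vertical axis) at 3 months (circles) and 5 months (squares), 5 mice per group. At 5 months the intervals of Akr1c6, both Cyp27a1 probes and Baat lie above 0 and that of the second Slc10a1 probe below 0, before adjustment over all probes; at 3 months every interval includes 0.

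Between 3 and 5 months the control livers changed in most members: Nr0b2 and the enzymes Akr1c6, Baat, Acox2 and Cyp27a1 fell, and Cyp7a1 rose. By limma, 8 of 12 probes passed at an adjusted p under 0.05, 6 lower and 2 higher, where 14.7% of all probes passed (7.25% lower and 7.41% higher). The median over all probes was itself 0.13 higher at 5 months in controls and 0.14 in knockouts, against -0.50 and -0.29 over the 10 genes by their first probe. The groups did not overlap for 5 of the 8, where 12.5% of all probes did not overlap. This is a comparison of different mice on different runs of arrays.

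Akr1c6 read 0.43, 0.40, 0.25, 0.38 and 0.79 in the 3-month controls, all above every 5-month control given above, and fell by 1.00 ± 0.17 (2.00-fold, adjusted p = 0.0020). Baat fell by 0.76 ± 0.16 (adjusted p = 0.0054), with no overlap. Acox2 went from 0.78, 0.54, 0.50, 0.56 and 0.19 to -0.39, 0.10, -0.07, -0.53 and -0.06, a fall of 0.71 ± 0.16 (adjusted p = 0.0080). In each of these enzymes the whole 3-month group lay above the whole 5-month group. The Cyp27a1 probes fell by 0.60 ± 0.15 (adjusted p = 0.014) and 0.68 ± 0.17 (adjusted p = 0.012), the second without overlap. Akr1d1 differed by -0.36 ± 0.20 (adjusted p = 0.23) and did not pass.

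Nr0b2 fell by 1.17 ± 0.33 (2.25-fold, adjusted p = 0.024) and Cyp7a1 rose by 1.45 ± 0.42 (2.73-fold, adjusted p = 0.027), each with 1 or more livers overlapping. These 2 calls are the least firm. Nr0b2 lost its call without 3-month control 2 or 3 or without 5-month control 1, 4 or 5 (adjusted p from 0.052 to 0.064), and Cyp7a1 without 3-month control 2 or without 5-month control 3, 4 or 5 (0.055 to 0.075). With the array series as a random block both lost it (adjusted p = 0.075 for Nr0b2 and 0.083 for Cyp7a1), and the other 6 probes were called. The second Slc10a1 probe rose by 0.65 ± 0.14 (adjusted p = 0.0061), while the first gave -0.16 ± 0.17. Without 5-month controls 4 and 5, a choice made after the data were seen, 1 of the 12 probes was called. With the sign of the Cy5-labelled array of control 4 turned, likewise chosen after the data were seen, 3 were called.

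In the knockouts the same comparison called 1 of 12 probes, Acox2, which fell by 0.58 ± 0.16 (adjusted p = 0.044), where 4.73% of all probes passed. It read 0.94, 0.68, 0.53, 0.54 and 0.28 at 3 months and -0.25, -0.18, 0.17, 0.34 and -0.01 at 5 months, with 1 liver of 5 months above the lowest of 3 months. The call was lost on leaving out any of 7 of the 10 knockouts (3-month knockout 1, 2 or 4, or 5-month knockout 1, 2, 3 or 5), with adjusted p from 0.062 to 0.097. Cyp7a1 was 1.41 ± 0.42 higher (adjusted p = 0.055) and Nr0b2 differed by -0.85 ± 0.33 (adjusted p = 0.12). Baat, by contrast with its value in controls, stood at -0.017 ± 0.16, and Akr1c6 at -0.36 ± 0.17; the tests of these differences between genotypes are the interaction terms above, which did not pass.

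Part of the markers of liver cell types also differed with age in the controls, where 7.25% of all probes were lower and 7.41% higher. Each marker gene was taken by its first probe. Of 12 hepatocyte markers, 4 were lower at 5 than at 3 months in controls and none in knockouts, with medians of -0.32 and -0.061. Their mean level per mouse ran from 0.19 to 0.29 in 3-month and from -0.53 to 0.16 in 5-month controls, and from 0.15 to 0.33 and 0.01 to 0.24 in knockouts. Of 9 Kupffer cell markers, 2 were lower in the 5-month controls (median -0.34), of 10 endothelial markers 3 were lower (median -0.16), of 10 stellate cell markers 1 was lower (median 0.17), and of 8 bile duct markers 2 were higher (median 0.25). None of 9 lymphocyte markers and none of 6 fetal liver and tumour markers passed. Of 11 genes known to be higher in male liver, 3 were lower (median -0.40). In the knockouts 1 of these 11 was lower and no marker of any of the cell types or of fetal liver and tumour passed, where 4.73% of all probes did. With probes of a gene averaged, 1 Kupffer cell marker, 2 endothelial markers and 2 of the genes higher in male liver were lower in controls. The other counts called between the ages were the same. Between genotypes at 5 months, 1 marker passed, the stellate cell gene Dcn, which was higher in knockouts (0.55 ± 0.11, adjusted p = 0.048), where 0.145% of all probes passed. This was the first of 4 Dcn probes. The others gave 0.55, 0.54 and 0.72 and did not pass (limma, adjusted p = 0.15, 0.28 and 0.20). With probes of a gene averaged, no stellate cell marker passed. At an unadjusted p under 0.05, 10.5% of all probes passed between genotypes at 5 months. The markers passing were 5 of 12 hepatocyte (median 0.19), 5 of 9 Kupffer cell (median 0.46) and 4 of 10 endothelial ones (median 0.20). Others were 3 of 10 stellate cell (median 0.11), 1 of 8 bile duct and 1 of 9 lymphocyte markers. Dbp, an output gene of the circadian clock, had means of -2.01 and -3.61 at 3 months and 0.56 and -0.61 at 5 months, in controls and knockouts. The part of these shifts in the values of the bile acid genes was not tested.

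**Figure D3:**
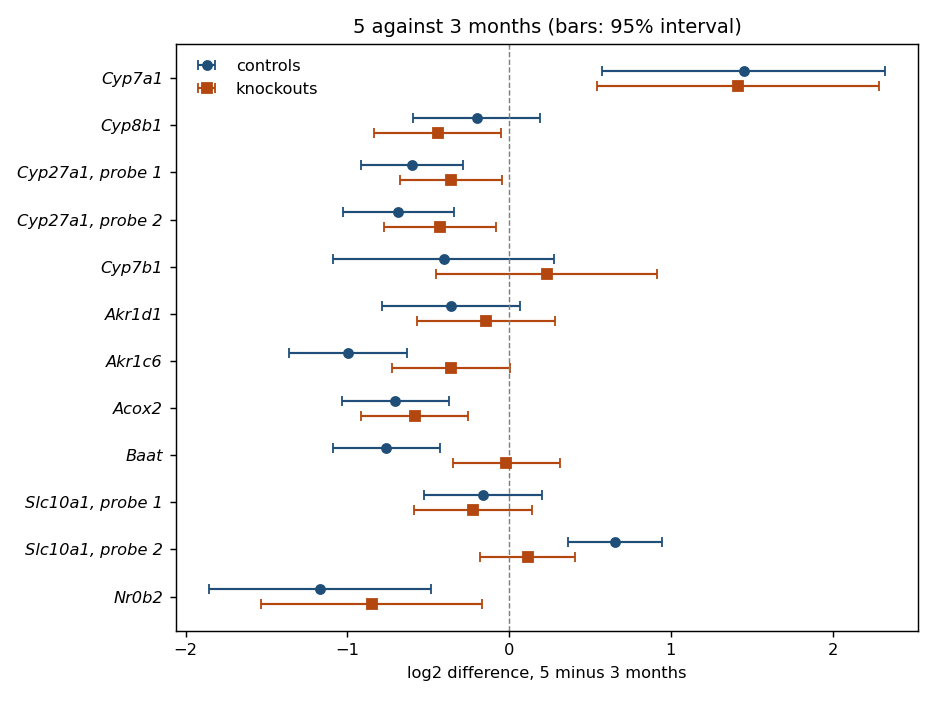
Difference between 5 and 3 months (horizontal axis, log2, 5 minus 3 months; points: limma estimate, bars: 95% interval) for the 12 probes (vertical axis) in controls (circles) and knockouts (squares), 5 mice per group. Akr1c6 fell by 1.00 and Baat by 0.76 in controls, and the corresponding values in knockouts were -0.36 and -0.017; Cyp7a1 and Nr0b2 lie on opposite sides of 0 in both.

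The spread of Cyp7a1 and Nr0b2 among 5-month knockouts followed the array series. In series A the 2 knockouts had Cyp7a1 at 1.70 and 1.09 and Nr0b2 at 0.25 and -0.03. In series B the 3 knockouts had Cyp7a1 between -0.41 and 0.03 and Nr0b2 between 1.22 and 1.70. Higher Cyp7a1 thus went with lower Nr0b2 in series A, and lower Cyp7a1 with higher Nr0b2 in series B. The split was not particular to them: the knockouts of series A and B did not overlap for 9 of the 12 member probes, all but Akr1c6, Baat and the first Cyp27a1 probe, and for 27.5% of all probes. Cyp8b1 stood at -0.33 and -0.91 in series A and 0.0020 to 0.20 in series B, and the first Slc10a1 probe at 0.14 and 0.08 against -0.39 to -0.17. The 5 controls, all of series A, ranged over both (Nr0b2 from -0.18 to 1.41). Series B holds knockouts alone, so the array series and differences among the mice cannot be told apart.

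Nr0b2 was set against each of the other 11 probes over the 10 mice of each age, 22 relations in all. At 5 months its strongest relation was with the first Slc10a1 probe (Pearson r = -0.79, permutation p = 0.011, adjusted p = 0.24; Spearman rho = -0.75, permutation p = 0.018, adjusted p = 0.39), and r was -0.66 without the 2 mice farthest from the median of Nr0b2. Cyp7a1 came next (r = -0.65, permutation p = 0.046, adjusted p = 0.51; rho = -0.60, permutation p = 0.072, adjusted p = 0.50), with r of -0.48 without the 2 farthest mice. Within the 7 mice of series A, r was -0.66 for Slc10a1 (exact permutation p = 0.11) and -0.42 for Cyp7a1 (exact permutation p = 0.33). At 3 months, where all livers had high Nr0b2, the values were 0.43 for the first Slc10a1 probe (permutation p = 0.21) and 0.017 for Cyp7a1 (permutation p = 0.94). Cyp8b1, the other enzyme named above as repressed by Nr0b2, had a Pearson r above 0 at 5 months. It was 0.47 (permutation p = 0.18, adjusted p = 0.59), against -0.11 at 3 months (permutation p = 0.77, adjusted p = 0.89). No relation passed after adjustment over the 22, and all tests were two-sided.

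**Figure D4:**
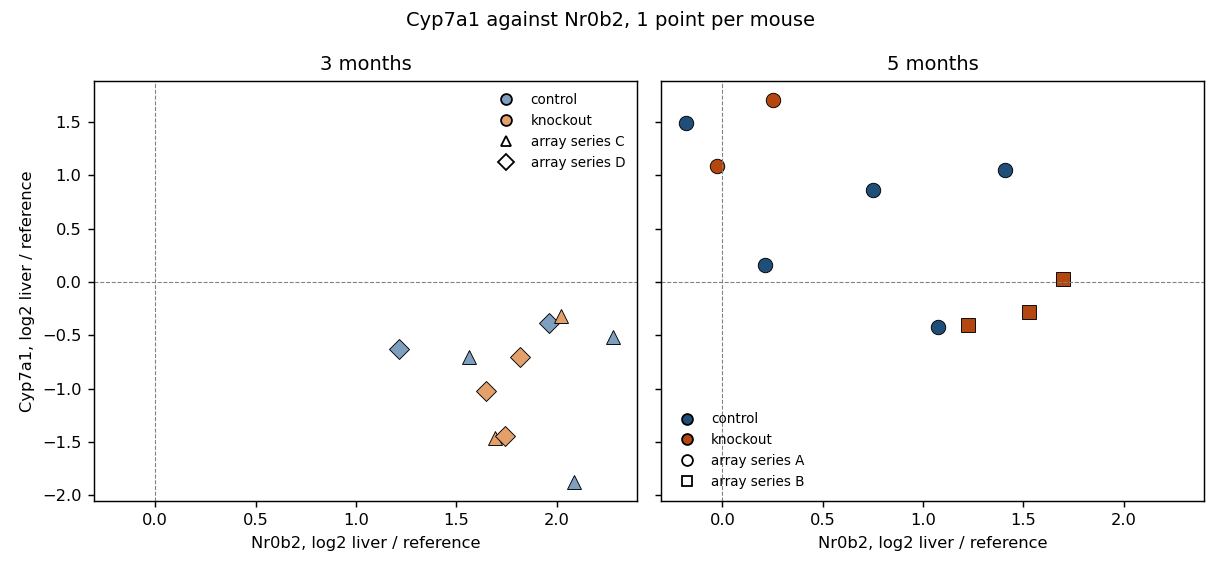
Cyp7a1 (vertical axis) against Nr0b2 (horizontal axis), both log2 liver over reference, 1 point per mouse, at 3 months (left) and 5 months (right); colour gives the genotype and shape the array series. All 10 livers of 3 months lie at high Nr0b2 and low Cyp7a1 (-1.87 to -0.32). At 5 months the 3 knockouts of series B have Nr0b2 from 1.22 to 1.70 and Cyp7a1 from -0.41 to 0.03. The 2 of series A have Cyp7a1 of 1.70 and 1.09.

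With the group means subtracted, members correlated with each other on both sides of 0. Over the 20 mice the 66 pairs of probes had a median r of 0.064, the highest being both probes of Cyp27a1 (0.59) and the lowest Cyp7b1 with the second Slc10a1 probe (-0.66), and Cyp7a1 with Nr0b2 stood at -0.49. Cyp8b1 with Nr0b2 stood at 0.36. The points share the reference pool and the arrays. By the same measure the named genes most like Cyp7a1, among 26925 probes with 1 symbol, were Onecut1 (r = 0.82), Myc (0.81) and Pfkfb3 (0.79). For Cyp8b1 they were Tm7sf3 (0.89), Nags (0.84) and an immunoglobulin kappa variable gene (0.83), and for the first Slc10a1 probe Snrk (0.88), Fosb (0.86) and Tulp4 (0.86). These are the highest of many values and are given as a description.

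Of 52 other genes of bile acid synthesis, export, uptake and regulation, 50 were measured and each was taken by its first probe. Between genotypes 0 passed at 3 months, where 0.0355% of all probes did (7 of 50 at an unadjusted p under 0.05, where 7.96% did), and 1 at 5 months, where 0.145% did, with medians of -0.022 and 0.093 against -0.025 and 0.014 over all probes. The 1 was Slc22a7, the organic anion transporter Oat2, which differed by -1.004 ± 0.19 at 5 months (2.00-fold lower in knockouts, adjusted p = 0.048) and by -0.87 ± 0.19 at 3 months (adjusted p = 0.13); with probes of a gene averaged across the table it did not pass. The smallest p at 3 months after it belonged to Slco1a4, an organic anion uptake carrier, at -0.88 ± 0.30 (adjusted p = 0.39). In controls, 3 of the 50 were higher and 6 lower at 5 than at 3 months, and in knockouts 1 was higher and 2 lower, so 9 and 3 of the 50 passed where 14.7% and 4.73% of all probes did. By role, the 14 synthesis genes had 1 higher and 3 lower in controls, the 11 export genes 1 higher and 1 lower, the 8 uptake genes 0 higher and 1 lower, and the 17 regulators 1 higher and 1 lower. Median changes in controls were 0.011 for synthesis, 0.26 for export, -0.31 for uptake and 0.085 for regulation. Counts by role depend on the probe taken. The higher regulator was Vdr (0.94, limma adjusted p = 0.025), whose second probe was lower (-1.01, adjusted p = 0.0075). The lower one was Fgfr4 (-0.54), whose second probe gave 0.04. The synthesis gene Hsd3b7 had 0.60 on its first probe and -1.06 on its second (limma adjusted p = 0.074 and 0.0034). With probes of a gene averaged, no regulator passed in controls. The bile acid receptor Nr1h4, the known inducer of Nr0b2, had group means of -0.18 and -0.39 at 3 months and -0.10 and -0.07 at 5 months, and Abcb11, the bile salt export pump and another target of that receptor, had 0.16 and -0.09 at 3 months and -0.81 and -0.47 at 5 months, in controls and knockouts. Abcb11 was lower at 5 than at 3 months in controls (-0.97 ± 0.15, limma adjusted p = 0.00089). Nr0b2 was lower too, but its 5-month means stayed above the pool (0.65 in controls and 0.93 in knockouts) where those of Abcb11 lay below it. Whether these changes share a cause was not tested.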

How the data were processed

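Total RNA of 20 livers was hybridised to 38 2-colour arrays, and 2 of the 5-month knockouts (2 and 3) had 1 array each. Each deposited value is a log2 ratio between the dyes, scaled by the authors to the median signal of the array in the mAdb suite after removal of invalid features, per the series' design text. The base was found from spacings of the values (differences of 1 recur most). The signal and spot counts behind a ratio are not used here, so the number of arrays limits the precision. Signs were set so that liver is over reference, each probe's dye effect (from the 18 mice with both dyes) was subtracted, and arrays of a mouse were averaged. Groups were compared with limma 3.58.1 (lmFit, eBayes) in R 4.3.3 over all 36607 probes and 20 mice, with Benjamini-Hochberg adjustment and a threshold of 0.05; the code was tested on simulated data. Correlations used permutations in scipy 1.17.1. Alternatives covered centring, quantile normalisation, dyes, array series, animal numbers, the methods' 2-sample test and leaving out mice. Probes were named from the platform table, 26926 with 1 symbol and 203 with several, which were left unnamed. Members and lists were chosen with earlier results of these data known. All members are named. Other pathway genes are named if called between genotypes or among the 2 with the smallest p. Nr1h4, Abcb11, Met, Dcn, Dbp, Vdr, Fgfr4 and Hsd3b7 were added after their values were seen. Same-numbered mice were not treated as pairs. Their deviations from the group means correlated at r from -0.20 to 0.25, which cannot exclude shared litters.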

Additional observations from a re-analysis of the deposited data

Results flagged for a closer look

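In 3 of 48 groups tested, 1 liver lay far from the other 4, and chance gives about 1 such group in 20. Cyp7a1 in 3-month control 2 was -1.87, with the others between -0.70 and -0.39. Akr1d1 in 5-month knockout 3, a mouse with 1 array, was -0.08, with the others between 0.38 and 0.54. The first Slc10a1 probe in 3-month knockout 1 was 0.77, with the others between -0.17 and 0. The knockout difference in Baat, 0.74 higher at 5 than at 3 months, had all 5 knockouts below the control mean at 3 months and above it at 5 months, with an interaction that did not pass adjustment (limma, adjusted p = 0.47). Without 3-month control 5, knockout 5 of that age lay above the control mean and the change of the difference was 0.62.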

How the results depend on the processing

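Counts are of the 12 member probes called by limma. Between genotypes 0 were called at either age and for the interaction under all alternatives run, the methods' 2-sample test included, except 2 at 5 months with quantile normalisation. For 5 against 3 months in controls, 8 were called: 6 to 8 on leaving out each mouse, 3 with the Cy5-labelled array of control 4 turned and 1 without 5-month controls 4 and 5 (both chosen after seeing the data). The animal number as a replicate block left 3 in controls and 0 in knockouts and changed no genotype count. In knockouts 1 was called: 0 to 2 on leaving out each mouse, 3 with arrays centred, 2 with the dye effect estimated within each age, and 0 without that dye effect, from Cy3 arrays alone, with series as a random block or without 5-month knockouts 2 and 3. Against the reference, 3-month controls gave 8 (6 to 7 on leaving out each mouse) and knockouts 8 (5 to 8), and 5 each from Cy3 arrays alone. The 5-month controls gave 4: 2 to 5 on leaving out each mouse, 2 centred, 1 from Cy5 arrays alone, 2 without the Cy5 array of control 4, 0 with it turned and 2 with probes averaged by gene. The 5-month knockouts gave 2, and 1 from Cy3 arrays alone or by gene means.

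Differences between genotypes that changed sign were all uncalled. With series as a covariate, and alike within series A, at 5 months Cyp7a1 was 0.77, Nr0b2 -0.54, the first Slc10a1 probe 0.21 and Acox2 -0.025. Without 5-month controls 4 and 5, Cyp7a1 was 0.16 and Cyp7b1 -0.23. At 5 months Cyp8b1 was 0.16 and the first Slc10a1 probe 0.0069 from Cy5 arrays, and Cyp8b1 0.0025 without knockouts 2 and 3. At 3 months Cy5 arrays gave Akr1d1 -0.20, Akr1c6 0.15, Slc10a1 -0.044 and -0.091 (first and second probe) and Nr0b2 0.12, and Cy3 arrays Acox2 -0.0032. Quantile normalisation gave Akr1c6 0.046, the first Slc10a1 probe -0.044 and Nr0b2 0.20, and centring gave Akr1c6 0.014. Series as a covariate gave Akr1c6 0.0005 and Nr0b2 0.013, series C alone Cyp7a1 0.14 and Akr1c6 0.29, and series D alone the first Slc10a1 probe -0.034 and Nr0b2 0.15. Against the reference, Cy3 arrays gave Akr1d1 -0.021 in 3-month controls and the second Slc10a1 probe 0.078 in 3-month knockouts, and the turned array -0.0027 for that probe in 5-month controls. Leaving out 1 mouse turned differences close to 0: at 3 months Acox2 (-0.0056 to 0.16), Akr1c6 (-0.10 to 0.089), Akr1d1 (-0.074 to 0.14), Nr0b2 (-0.19 to 0.077) and the first Slc10a1 probe (-0.14 to 0.11), and at 5 months Cyp7a1 (-0.52 to 0.014), Cyp8b1 (-0.20 to 0.078) and that Slc10a1 probe (-0.099 to 0.033). The cause was not tested.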
